A study of Drosophila melanogaster with 2 samples.

Results

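The E(spl) complex bHLH genes are 7 genes on chromosome arm 3R of Drosophila melanogaster: E(spl)mdelta-HLH, E(spl)mgamma-HLH, E(spl)mbeta-HLH, E(spl)m3-HLH, E(spl)m5-HLH, E(spl)m7-HLH and E(spl)m8-HLH. They are 7 of the 13945 protein-coding genes annotated on the 6 arms used. They were chosen from the measured peaks, because thresholded peaks of fd102C lie across the complex, so how many of them have a peak and how high it is are descriptions with no test. Binding of fd102C, a fork head domain protein, was measured by ChIP-seq, in which DNA bound by a protein is pulled down with an antibody and sequenced, in whole embryos of mixed sex, 2 to 6 h old by their source label. The embryos came from a transgenic line, named fd102C-GFP, that stably expresses fd102C with GFP at its C-terminal end, and what drives the transgene is not given in the sources used here. Both biological replicates belong to this 1 group, so there is no second condition. Whole embryos pool all their cells, and which of them carry the fusion protein is not given.

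The data are peak lists in dm6 coordinates: 30000 peaks in each replicate's own list, 30000 in a pooled list of both, and a thresholded list of 2031 peaks that passed the authors' test of reproducibility. In the labels the description of both samples reads input control, against their assay and antibody fields, and both were taken as ChIP. The thresholded peaks are the 2031 pooled peaks with the highest signal. The signal is the value that the authors' peak caller gave each peak. Its scale is not stated, so it serves here for description and for ranking inside a list, with rank 1 the highest. Read depth is unknown. Peak position is given by the summit deposited for each peak, and distance to a gene is from the summit to the transcription start site (TSS), counted along the gene. Of the 2031 thresholded peaks, 1648 are 360 bp wide, and those of this width in the complex have their summit at the middle.

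The 7 genes encode basic helix-loop-helix (bHLH) repressors of the HES family, which carry an Orange domain and end in a WRPW motif that recruits the co-repressor Groucho. They are direct targets of Notch signalling: the cleaved receptor enters the nucleus, joins the DNA-binding protein Su(H), and switches them on. In the early embryo they hold back the proneural genes, so that only some cells of the neuroectoderm become neuroblasts.

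All 7 genes have 1 annotated transcript made of 1 exon, against 12.95% of all protein-coding genes with 1 exon. They are 769 to 1305 bp long, against a median of 2166 bp over protein-coding genes. Ordered along the arm, E(spl)mdelta-HLH covers chr3R:25997621-25998633, E(spl)mgamma-HLH chr3R:25999851-26000761, E(spl)mbeta-HLH chr3R:26005046-26006023 and E(spl)m3-HLH chr3R:26021823-26023127. E(spl)m5-HLH covers chr3R:26028854-26029735, E(spl)m7-HLH chr3R:26037038-26038019 and E(spl)m8-HLH chr3R:26040240-26041008. E(spl)mbeta-HLH and E(spl)m5-HLH lie on the minus strand and the other 5 on the plus strand.

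The sequences that carry the results are of 2 kinds, read from the Release 6 reference genome (dm6) and written 5′ to 3′. Capitals mark matches, on either strand, to the fork head consensus (the word ATAAACA, the word ATAAATA, the word GTAAACA or the word GTAAATA), the Su(H) word (CGTGGGAA, CGTGAGAA, TGTGGGAA or TGTGAGAA), the proneural E box (the word GCAGGTG or the word GCAGCTG), the Zelda word (CAGGTAG) and the 6-mer ACACTG. A match is a description of letters and not a site. The first kind is the 201 bases centred on a thresholded summit that lies upstream of its gene. The windows shown are those of E(spl)m7-HLH, E(spl)m3-HLH and E(spl)mdelta-HLH, and the highest summit of the whole complex, which lies farther upstream of E(spl)mdelta-HLH.
Highest summit of the complex (chr3R:25996501-25996701, plus strand): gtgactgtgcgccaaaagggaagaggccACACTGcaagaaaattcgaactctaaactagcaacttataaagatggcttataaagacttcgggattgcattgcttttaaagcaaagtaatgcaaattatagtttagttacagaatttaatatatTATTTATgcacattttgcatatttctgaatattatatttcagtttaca
E(spl)mdelta-HLH summit (chr3R:25997209-25997409, plus strand): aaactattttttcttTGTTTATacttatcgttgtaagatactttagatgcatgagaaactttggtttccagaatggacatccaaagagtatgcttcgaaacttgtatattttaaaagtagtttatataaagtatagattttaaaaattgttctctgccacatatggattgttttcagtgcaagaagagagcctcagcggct
E(spl)m3-HLH summit (chr3R:26021263-26021463, plus strand): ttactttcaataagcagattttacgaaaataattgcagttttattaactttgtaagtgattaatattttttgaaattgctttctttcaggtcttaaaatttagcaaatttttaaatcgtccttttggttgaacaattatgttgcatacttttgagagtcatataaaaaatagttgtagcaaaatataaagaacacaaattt
E(spl)m7-HLH summit (chr3R:26036520-26036720, plus strand): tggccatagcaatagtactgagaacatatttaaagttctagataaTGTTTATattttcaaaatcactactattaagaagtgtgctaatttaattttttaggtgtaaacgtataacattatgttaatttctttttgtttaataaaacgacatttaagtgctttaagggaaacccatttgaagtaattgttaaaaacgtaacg

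The second kind is the 300 bases that end just before the TSS, for the 4 genes whose highest summit lies at the TSS itself. They are written on the strand of the gene and show 6 of the 8 Su(H) words counted in 500 bp upstream of these genes. The others, at E(spl)mgamma-HLH and E(spl)m5-HLH, lie farther upstream than the printed bases.
E(spl)mgamma-HLH upstream (chr3R:25999551-25999850, plus strand): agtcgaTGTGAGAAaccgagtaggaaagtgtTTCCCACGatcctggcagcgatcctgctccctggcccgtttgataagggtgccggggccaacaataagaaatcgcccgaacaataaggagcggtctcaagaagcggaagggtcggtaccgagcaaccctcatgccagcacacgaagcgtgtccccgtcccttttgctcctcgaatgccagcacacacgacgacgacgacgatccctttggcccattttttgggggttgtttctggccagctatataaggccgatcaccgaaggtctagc
E(spl)mbeta-HLH upstream (chr3R:26006024-26006323, minus strand): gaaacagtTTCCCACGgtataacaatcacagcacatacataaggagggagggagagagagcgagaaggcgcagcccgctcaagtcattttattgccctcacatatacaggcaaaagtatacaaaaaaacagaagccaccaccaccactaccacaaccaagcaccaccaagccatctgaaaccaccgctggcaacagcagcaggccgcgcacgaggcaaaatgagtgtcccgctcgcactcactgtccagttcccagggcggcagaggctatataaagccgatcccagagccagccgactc
E(spl)m5-HLH upstream (chr3R:26029736-26030035, minus strand): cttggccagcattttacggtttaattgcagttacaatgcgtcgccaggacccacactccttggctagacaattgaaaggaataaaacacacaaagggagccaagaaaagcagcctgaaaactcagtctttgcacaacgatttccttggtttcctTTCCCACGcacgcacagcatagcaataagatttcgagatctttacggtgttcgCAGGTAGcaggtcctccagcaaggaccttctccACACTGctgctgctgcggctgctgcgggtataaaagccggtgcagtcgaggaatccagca
E(spl)m8-HLH upstream (chr3R:26039940-26040239, plus strand): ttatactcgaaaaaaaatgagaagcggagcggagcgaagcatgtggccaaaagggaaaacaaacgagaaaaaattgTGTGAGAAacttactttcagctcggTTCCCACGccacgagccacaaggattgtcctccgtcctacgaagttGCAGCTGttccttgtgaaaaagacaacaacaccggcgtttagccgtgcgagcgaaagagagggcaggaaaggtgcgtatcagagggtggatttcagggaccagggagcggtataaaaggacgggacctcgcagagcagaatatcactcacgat

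Of the 7 genes, 4 had a thresholded summit within 1 kb of their TSS: E(spl)m7-HLH, E(spl)mdelta-HLH, E(spl)m3-HLH and E(spl)m5-HLH. Over all protein-coding genes the same rule called 9.08%. Each of the 4 had 1 such summit. The other 3, E(spl)mgamma-HLH, E(spl)mbeta-HLH and E(spl)m8-HLH, had pooled summits below the threshold. All 7 had a summit within 1 kb in the pooled list, in replicate 1 and in replicate 2, but these longer lists also called 58.6%, 57.4% and 58.6% of all protein-coding genes. Since the genes were chosen with these peaks known, nothing further is read from the counts.

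E(spl)m7-HLH carried the highest peak among the 7 genes. Its pooled summit at position 26036620 had a signal of 399.3 and rank 180. The replicate summits had signals of 222.2 in replicate 1 and 179.6 in replicate 2, with ranks 190 and 167. The 3 lists thus placed it at close ranks, 382 to 418 bp upstream of the TSS of E(spl)m7-HLH-RA. A lower pooled summit lay 188 bp inside the gene, with signal 78.1 and rank 5431.

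E(spl)mdelta-HLH followed, with a pooled signal of 260.8 and rank 501 at position 25997309. Its highest summit had a signal of 164.9 and rank 384 in replicate 1, and a signal of 98.96 and rank 687 in replicate 2. The summit stood 312 bp upstream of the TSS in the pooled list, 326 bp in replicate 1 and 351 bp in replicate 2. Replicate 1 therefore ranked this peak higher than replicate 2 did, and both kept it below the peak of E(spl)m7-HLH and above that of E(spl)m3-HLH. Each replicate also listed 1 low summit inside the gene, 365 bp from the TSS in replicate 1 and 182 bp from it in replicate 2.

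E(spl)m3-HLH had a pooled signal of 201.7 and rank 819 at position 26021363, 460 bp upstream of its TSS. Replicate 1 gave a signal of 119.8 and rank 787, and replicate 2 a signal of 94.7 and rank 760. The ranks were again close. This summit lies between 2 divergent starts: that of lncRNA:CR43644, a non-coding RNA gene on the minus strand, is nearer, at 287 bp. A neighbouring pooled summit below the threshold stood 206 bp closer to E(spl)m3-HLH, with signal 106.4 and rank 2821. Replicate 1 listed it too, 278 bp upstream of the TSS, and replicate 2 listed no separate summit there. A further low summit lay inside the gene, 284 bp from the TSS, with pooled signal 53.2.

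E(spl)m5-HLH differed from these 3 in position. Its thresholded summit at 26029684 lay 51 bp downstream of the TSS, in the 5′ UTR, with a pooled signal of 153.5 and rank 1389. Replicate 1 gave 91.7 and rank 1372 at the same base, and replicate 2 gave 63.1 and rank 1639, 38 bp downstream of the TSS. By pooled signal it was the lowest of the 11 thresholded summits in and around the complex, while in replicate 1 a summit at gro was lower.

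The 3 genes without a thresholded summit also had their highest pooled summit at the TSS, in the 5′ UTR. E(spl)mgamma-HLH came nearest to the threshold, 84 bp downstream of its TSS with a pooled signal of 114.3 and rank 2487. Its summit had a signal of 57.0 and rank 3776 in replicate 1, and a signal of 57.4 and rank 2027 in replicate 2. The value just inside the threshold among the 7 genes was thus 153.5 at E(spl)m5-HLH and the value just outside 114.3 at E(spl)mgamma-HLH, with the lowest thresholded peak at 125.7.

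E(spl)mbeta-HLH had its pooled summit 21 bp downstream of the TSS, with signal 90.4 and rank 3895. Replicate 1 placed it at rank 10057 with a signal of 39.5, and replicate 2 at rank 2693 with a signal of 49.9. E(spl)m8-HLH had its pooled summit 25 bp downstream of the TSS, with signal 74.2 and rank 6113. Its rank was 3721 in replicate 1, with signal 57.3, and 8436 in replicate 2, with signal 30.9. The replicates thus disagreed on both genes, in opposite directions, and their highest summits at E(spl)m8-HLH lay 119 bp apart. At E(spl)m8-HLH the replicate 1 summit was 89 bp upstream of the TSS and that of replicate 2 was 30 bp downstream. At E(spl)mbeta-HLH the highest summit was 32 bp upstream in replicate 1 and 28 bp downstream in replicate 2.

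The order E(spl)m7-HLH, E(spl)mdelta-HLH, E(spl)m3-HLH, E(spl)m5-HLH was the same in both replicates, and the rank ranges of these 4 genes did not overlap one another or those of the other genes. The lower 3 could not be ordered. Their ranks spanned 2027 to 3776 at E(spl)mgamma-HLH, 2693 to 10057 at E(spl)mbeta-HLH and 3721 to 8436 at E(spl)m8-HLH, so each neighbouring pair overlapped between replicates.

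**Figure D1:**
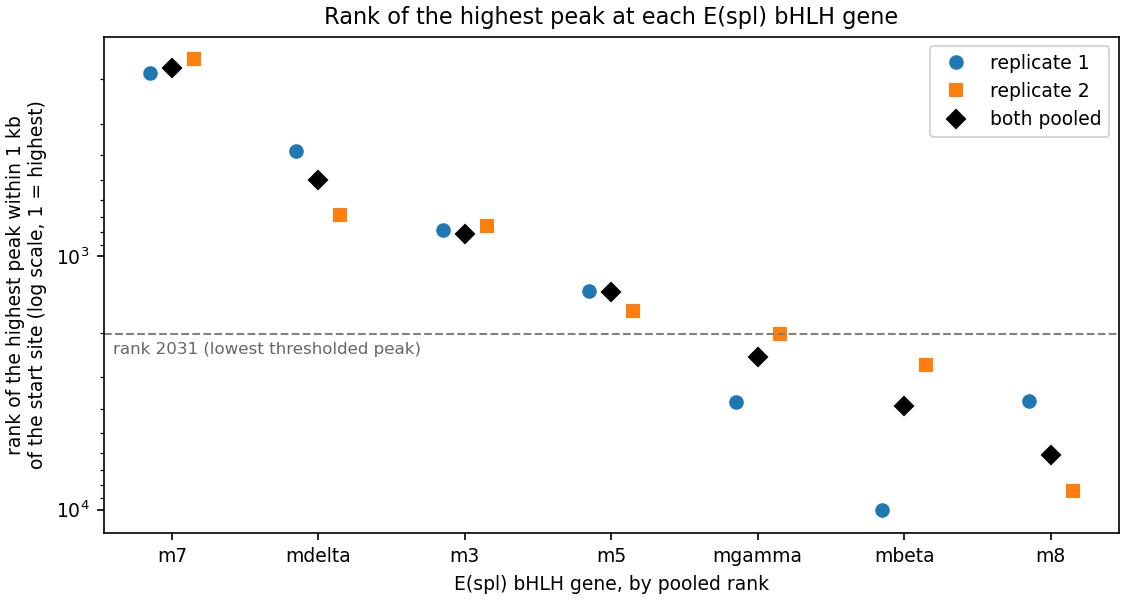
Rank of the highest peak within 1 kb of the TSS of each E(spl) bHLH gene (vertical log axis, rank 1 highest) in replicate 1 (circles), replicate 2 (squares) and both pooled (diamonds), with the dashed line at rank 2031. The points of E(spl)m7-HLH, E(spl)mdelta-HLH, E(spl)m3-HLH and E(spl)m5-HLH stand above the line in all 3 lists, and those of E(spl)mbeta-HLH and E(spl)m8-HLH spread widely below it. E(spl)mgamma-HLH straddles the line, with replicate 2 just above it at rank 2027 and the replicate 1 and pooled points below.

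By position, the 7 genes fell into 2 classes. At E(spl)m7-HLH, E(spl)m3-HLH and E(spl)mdelta-HLH the highest pooled summit lay 300 to 500 bp upstream of the TSS. At E(spl)mgamma-HLH, E(spl)mbeta-HLH, E(spl)m5-HLH and E(spl)m8-HLH it lay within 100 bp of the TSS, a class that held 4 of the 7 genes, against 22.0% of all protein-coding genes with any pooled summit that close. Of the 979 thresholded summits within 1 kb of a protein-coding TSS, 41.5% lay within 100 bp and 7.35% lay 300 to 500 bp upstream. Among the 4 thresholded summits at the bHLH genes, 1 lay within 100 bp and 3 lay 300 to 500 bp upstream. Since 4 summits are few and their genes were chosen for having them, this is given without a test.

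**Figure D2:**
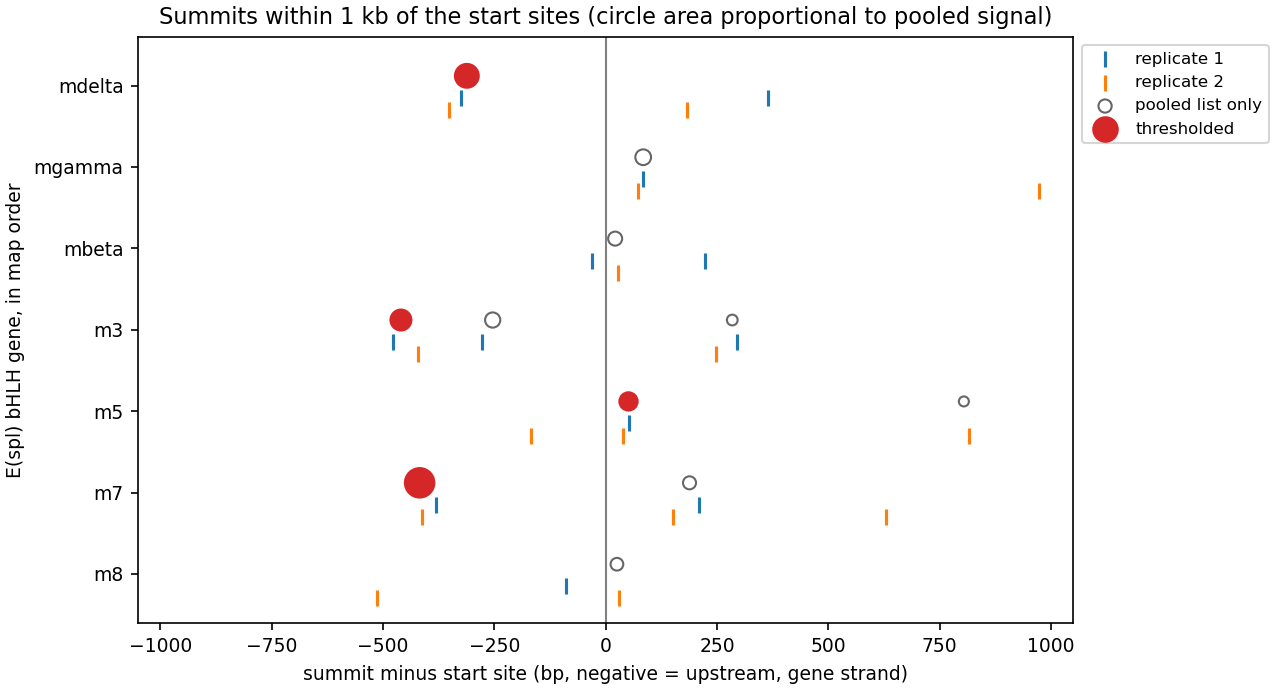
Position of each summit within 1 kb of the TSS of the 7 genes (horizontal axis, bp along the gene, negative upstream), with the thresholded summits filled, other pooled summits open (area proportional to pooled signal) and the replicate summits as ticks. The filled circles of E(spl)mdelta-HLH, E(spl)m3-HLH and E(spl)m7-HLH lie 312 to 460 bp upstream, and that of E(spl)m5-HLH lies 51 bp downstream.

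The classes, which were set by position, also differed in base composition. The 201 bases around the upstream summits held 31.3% G and C at E(spl)mdelta-HLH, 25.9% at E(spl)m7-HLH and 23.4% at E(spl)m3-HLH. Around the summits at the TSS, G and C made up 44.8% at E(spl)m8-HLH, 47.3% at E(spl)mgamma-HLH, 47.8% at E(spl)m5-HLH and 51.2% at E(spl)mbeta-HLH. The 2 classes did not overlap. The difference was not particular to the bHLH genes, since the other thresholded summits of the complex showed it too. Within 100 bp of a TSS they held 48.3% at E(spl)malpha-BFM, 45.8% at E(spl)m4-BFM and 46.8% at gro. Farther from a TSS they held 28.9% at E(spl)m2-BFM, 31.3% at CG43116, 37.3% at E(spl)malpha-BFM and 39.8% at gro. Composition by position over all thresholded summits is not given here. Over all thresholded summits the median was 37.3%, with quartiles of 32.3% and 43.3%. The window of E(spl)m3-HLH was among the poorest in G and C, since 0.985% of all thresholded summits had as little or less, and that of E(spl)m7-HLH followed with 3.64%. The long runs of A and T are visible in both printed windows.

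The widened complex, from 5 kb before E(spl)mdelta-HLH to 5 kb after E(spl)m8-HLH (chr3R:25992621-26046008), held 44 pooled summits, of which 11 were thresholded. Of the 11, 4 lay within 1 kb of the TSS of a bHLH gene, and the rest lay at genes between and beside them. Those at E(spl)m3-HLH and E(spl)mdelta-HLH also lay near the start of another gene, so the split is by the 1 kb rule only. The signal of the 11 ran between 153.5 and 481.9, with a median of 201.7, against 181.3 over all thresholded summits. All 11 were matched by a summit of each replicate within 100 bp, no more than 95 bp away in replicate 1 and 39 bp in replicate 2. Thresholded peaks had passed a test of reproducibility, so such matches follow largely from the list and lend these peaks no added support. By annotation, 5 were intergenic, 2 in a 5′ UTR, 2 in an intron, 1 in a coding exon and 1 in an exon of a non-coding RNA.

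The highest of the 11 belonged to no bHLH gene by distance. It lay at 25996601, in an intron of CG43116, 395 bp downstream of that gene's TSS and 1020 bp upstream of the TSS of E(spl)mdelta-HLH. Its pooled signal was 481.9 (rank 110), with 275.6 in replicate 1 (rank 116) and 199.5 in replicate 2 (rank 129). It stood 708 bp from the thresholded summit of E(spl)mdelta-HLH, and CG43116, on the opposite strand, had both summits within 1 kb of its own TSS. The summit at E(spl)mdelta-HLH lay 312 bp from the TSS of that gene and 313 bp from the TSS of CG43116, so it cannot be given to 1 gene by distance.

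The Bearded family genes of the complex, small Notch targets that inhibit the ubiquitin ligase Neuralized, had 4 of the 11 summits. E(spl)malpha-BFM had 2, at 44 bp and 822 bp downstream of its TSS, with signals of 199.3 and 177.3. E(spl)m2-BFM had 1 of signal 332.4 that lay 582 bp upstream, in an exon of lncRNA:CR43643, and E(spl)m4-BFM had 1 of signal 181.3 that lay 95 bp downstream. E(spl)m6-BFM was the Bearded family gene without one, with a highest pooled signal of 75.5 (rank 5865).

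The last 2 of the 11 lay at gro, which encodes the Groucho co-repressor that the bHLH proteins recruit. The summit at 26042460 had a signal of 214.2 and ranks 770 and 677 in replicates 1 and 2, 181 bp upstream of the start of gro-RF. The summit at 26041685 had a signal of 156.3, 51 bp upstream of the start shared by gro-RB and gro-RE and 1445 bp downstream of the TSS of E(spl)m8-HLH. The replicates ranked it differently, at 2061 in replicate 1 and 735 in replicate 2, and their distance to it was 95 bp and 0 bp. Kaz-m1, a gene of the complex for a Kazal-type protease inhibitor, had its highest pooled summit at rank 4137, below the threshold. Nf1, whose end reaches into the widened span, had no pooled summit within 1 kb of a TSS.

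The other 33 pooled summits ran between 38.9 and 114.3 in signal, with a median of 53.2, against 51.6 over the whole pooled list. Of these, 12 were matched by a summit of each replicate within 100 bp. The share of the whole pooled list matched in this way is not given here, so the 12 cannot be called many or few. The highest of them was the one at E(spl)mgamma-HLH, and the next was the second upstream summit of E(spl)m3-HLH. The median signal of the summits below the threshold was thus close to that of the list as a whole. The whole list also holds the thresholded peaks, so the sets compared are unlike.

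**Figure D3:**
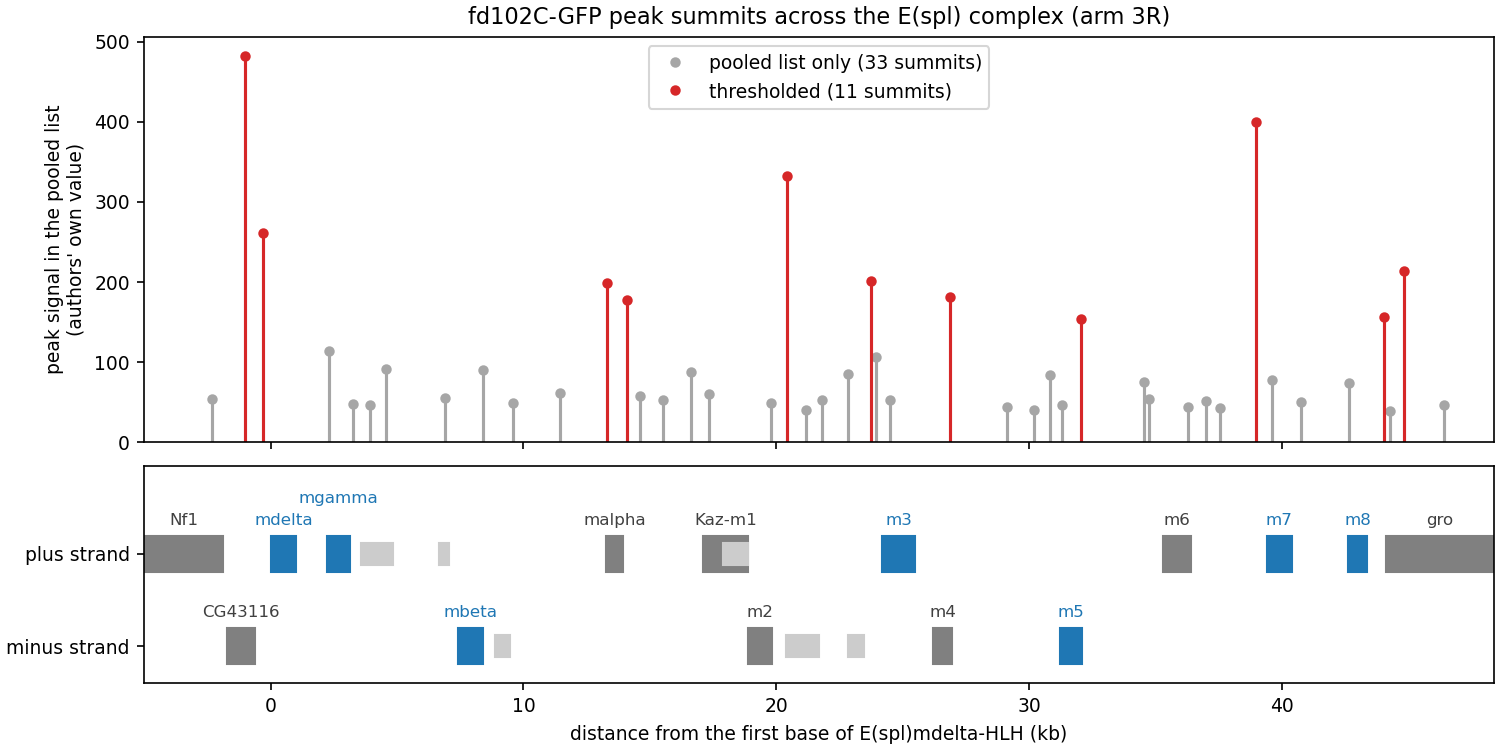
Pooled summits across the widened complex by distance from the first base of E(spl)mdelta-HLH (kb), with the pooled signal as the height of each line, above a map of the genes by strand (bHLH genes in blue, other protein-coding genes dark grey, non-coding RNA genes light grey). The 11 thresholded summits stand at 153.5 or more and the other 33 at 114.3 or less.

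Density was set beside the rest of the genome by counting thresholded summits in every window of the same width, 53.388 kb, moved in steps of 1 kb along the 6 arms. The mean was 0.812 summits per window and 57.7% of windows had none. Of 133562 windows, 23 held at least 11 summits, or 0.0172%, and 11 was the highest count of any window. Of these 23 windows, 12 overlapped the complex. The others came from 1 region of arm 2R, in 8 windows, and 1 region of arm X, in 3 windows where all 11 summits lay inside the gene CG1677. The windows overlap and the complex was chosen for its peaks, so the share describes the map and tests nothing.

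**Figure D4:**
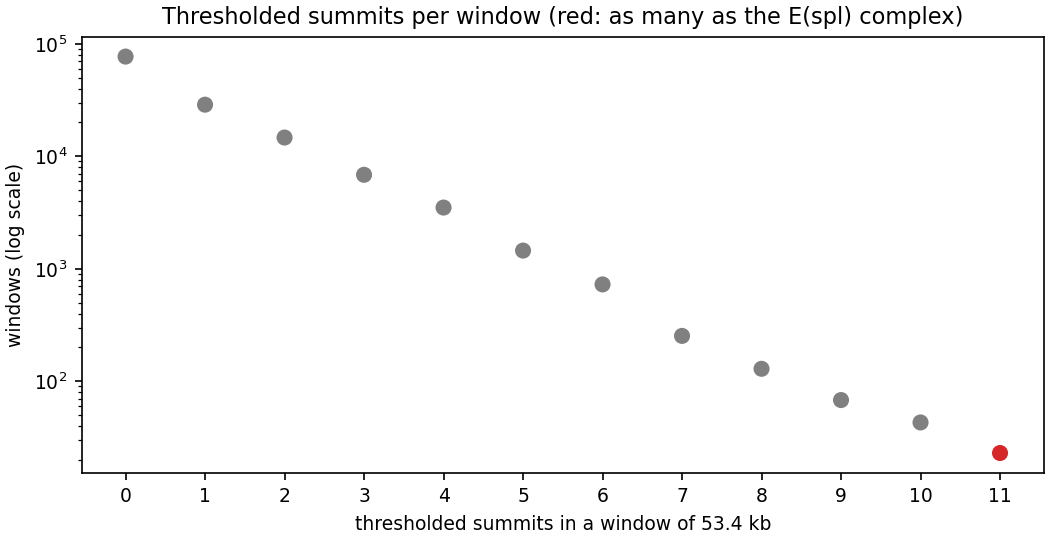
Number of windows of 53.388 kb (vertical log axis) by the number of thresholded summits in them (horizontal axis), over 133562 overlapping windows. The red point marks the 23 windows with 11 summits, the count of the E(spl) complex.

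By called genes in place of summits, the complex was not the fullest region. It held 15 protein-coding genes, of which 9 had a thresholded summit within 1 kb of a TSS, spread over 11 summits. The windows most like it by this measure had 8 to 10 called genes on fewer summits. A window of arm 3L had 10 called genes of 20 on 5 summits, among them aay, Atat, Shc and Nf-YA. A window of arm 2R had 9 of 24 on 5 summits, with yki and RpL39 among them. Windows of arms 2L, 2L and 3R had 8 called genes each, on 5, 6 and 7 summits, and included Dref and RpL13, RpL24 and Ing5, and Nup98-96 and mbc.

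Words for known factors were counted around the summits. A fork head consensus word lay within 100 bp of 7 of the 11 thresholded summits of the complex, against 43.1% of all thresholded summits. At the bHLH genes themselves it was 2 of 4, E(spl)mdelta-HLH and E(spl)m7-HLH, each with TGTTTAT upstream of the summit base. With a narrower window of 50 bp on each side, 2 of the 11 held one. The share over all thresholded summits is given here only for 100 bp, so nothing is read from this drop about where the words lie. The strict fork head word GTAAACA, which is also 1 of the consensus words, was at 0 of the 11, against 9.90% over all thresholded summits. The 6-mer ACACTG was at 2 of the 11 and 0 of the 4 at bHLH genes, against 18.3%.

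The words of the Notch and proneural inputs were not at the summits. The Su(H) word was within 100 bp of 0 of the 11 (2.31% over all thresholded summits), the proneural E box of 0 (4.53%) and the Zelda word of 0 (1.58%). The general E box CANNTG, which includes the proneural words, was at 6 of the 11, against 63.3%. The word of GAGA factor, GAGAG, was at 2 of the 11, against 27.0%, and both were at bHLH genes, E(spl)m3-HLH and E(spl)mdelta-HLH. With 11 summits, a count of 0 for a word found at a few percent of all summits separates the complex from nothing.

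In the 500 bp upstream of the TSS the picture by gene was different. Su(H) words were present at 4 of the 7 bHLH genes, against 5.16% of all promoters of that length: 3 at E(spl)mgamma-HLH, 1 at E(spl)mbeta-HLH, 2 at E(spl)m5-HLH and 2 at E(spl)m8-HLH. These 4 are the genes whose highest summit lay within 100 bp of the TSS. E(spl)mdelta-HLH, E(spl)m3-HLH and E(spl)m7-HLH, with upstream summits, had none of these 4 Su(H) words there, which says only that these letters are not in this window.

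At E(spl)mgamma-HLH and at E(spl)m8-HLH, TGTGAGAA and TTCCCACG, an inverted pair of Su(H) words, begin 25 bp apart. The pair is visible in capitals in both printed upstream sequences, centred 291 and 266 bp upstream of the TSS of E(spl)mgamma-HLH and 221 and 196 bp upstream of that of E(spl)m8-HLH. The other neighbouring Su(H) words were 194 bp apart at E(spl)mgamma-HLH and 163 bp apart at E(spl)m5-HLH. None of these words lay within 100 bp of the gene's highest pooled summit, which was downstream of the TSS at all 4 genes.

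Proneural E boxes were present upstream of 3 of the 7 genes, against 14.5% of promoters, with 2 each at E(spl)mgamma-HLH, E(spl)m7-HLH and E(spl)m8-HLH. Fork head consensus words were present at 2 of the 7, E(spl)mdelta-HLH and E(spl)m7-HLH, against 64.0% of promoters. The Zelda word was present at 1 of the 7, 90 bp upstream of E(spl)m5-HLH, against 2.94%. A TATA word (the word TATAAA or the word TATATA, on the strand of the gene, 40 to 15 bases upstream) was searched for after the sequences had been seen. It began 25 to 34 bases upstream of the TSS at 5 of the 7 genes, against 10.4% of promoters. E(spl)m8-HLH had one just outside this range, at 43 bases, and E(spl)mdelta-HLH had none.

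**Figure D5:**
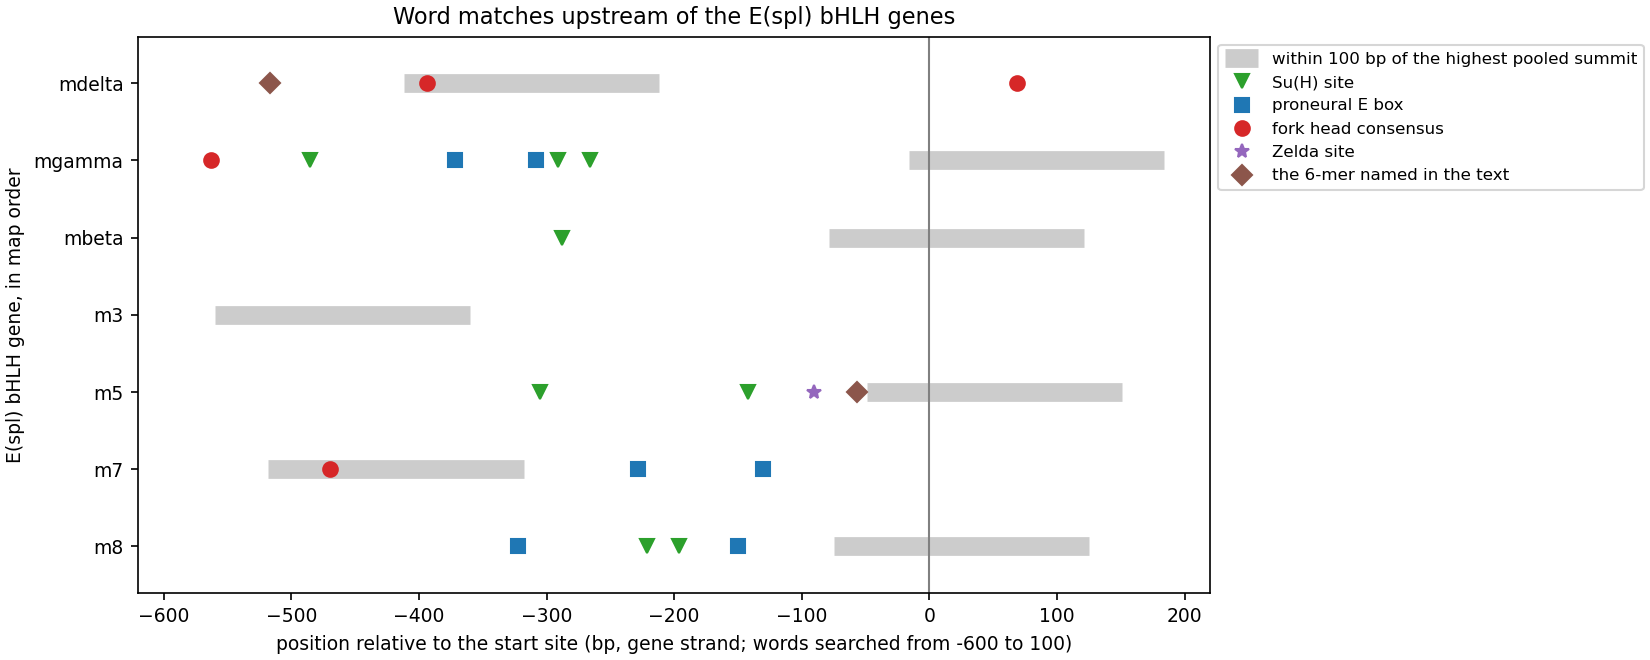
Matches of each word (symbols) between 600 bp upstream and 100 bp downstream of the TSS of the 7 genes (horizontal axis, bp along the gene), with grey bars for the 100 bp on either side of the highest pooled summit; the 6-mer is ACACTG. Su(H) words stand 142 to 485 bp upstream at E(spl)mgamma-HLH, E(spl)mbeta-HLH, E(spl)m5-HLH and E(spl)m8-HLH, outside the grey bars.

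Of 38 other genes in 4 lists of the Notch pathway, the HES family and the proneural genes, 11 had a thresholded summit within 1 kb of a TSS, against 9.08% of all protein-coding genes. Of the 6 other genes of the complex 4 were called, as described above, and they share the locus that was chosen for its peaks. Outside the complex 7 of 32 were called, and in the Notch core pathway 5 of 18, again beside 9.08% of all protein-coding genes and with no test. The lists were written with earlier results of these data known. N, the receptor, had a summit of signal 165.9 (rank 1197) 57 bp downstream of a TSS. numb, which inhibits Notch in dividing neural precursors, had the highest of the 38, with signal 515.0 and rank 87, and ranks 97 and 87 in replicates 1 and 2. dx, a ubiquitin ligase that acts on Notch, had signal 218.8, with ranks of 1339 in replicate 1 and 467 in replicate 2.

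aph-1, a subunit of gamma-secretase, had signal 148.4, but the replicates disagreed, with ranks of 3462 in replicate 1 and 691 in replicate 2. neur, the ubiquitin ligase that acts on Delta, had signal 130.0 and rank 1897, close to the threshold. Delta, a ligand, fell just below it with a pooled signal of 123.8 and rank 2093, 33 bp downstream of a TSS. fng, a glycosyltransferase that modifies Notch, had its highest pooled summit at rank 21092, and H, the Su(H)-binding co-repressor Hairless, had no pooled summit within 1 kb.

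Of the 5 HES family genes outside the complex, hry (hairy) was called, with signal 221.8 and rank 692, 84 bp downstream of a TSS. In the pooled list and in replicate 1 (rank 577), hry ranked lower than the peak of E(spl)mdelta-HLH and higher than that of E(spl)m3-HLH. In replicate 2 hry had rank 1202, lower than both, with E(spl)m3-HLH at rank 760. The order of hry and E(spl)m3-HLH thus differed between the replicates. cwo and dpn had pooled summits at ranks 4622 and 15425, and Hey had none. Of the 9 proneural genes and partners, emc, which encodes a helix-loop-helix protein that blocks proneural bHLH proteins, was called, with signal 160.0 and rank 1274. Of the proneural genes that the E(spl) proteins repress, ac had its highest pooled summit at rank 6189 and ase at rank 7520, and amos had none.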

How the data were processed

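ChIP-seq of fd102C-GFP embryos was analysed from deposited peak lists of 2 biological replicates. The labels call both samples input control in their description, while their assay and antibody fields name transcription factor ChIP-seq and fd102C, and they were treated as ChIP. The age is from the source label, since the age field gives an impossible number of hours. That the replicates are biological is stated in the labels, without naming separate collections.

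The authors deposited, per peak, a signal value, a −log10 q-value and a summit, and the deposited −log10 q-value was read but entered no result. Per the deposited notes, the authors made a list for each replicate and another for the pooled replicates, each against a control that was not used here. Chromatin was sonicated to 200 to 800 bp, per the labels. No aligner, caller or reproducibility threshold is named in the sources used here. Each unthresholded list holds exactly 30000 peaks, so it includes background. The lists carry no read counts, so depth and counting precision are unknown.

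Genes and 23584 TSS positions are from Ensembl release 115 (dm6 coordinates, transposable elements left out), and sequences from the NCBI RefSeq Release 6 genome, where all 7 members have the same start and end. A gene counted as called if any of its TSSs had a summit within 1 kb. Words were matched on both strands with Python 3.11.15, numpy 2.4.6 and pandas 2.3.3, and the matching was tested on simulated data. The members, lists and words were chosen with earlier results of these data known, so no test was made. Named genes were the 7 members, the called genes of each list with at most 3 uncalled ones in alphabetical order, the protein-coding genes of the widened complex, and genes of the 5 windows with the most called genes. CG1677 was named after its values were seen. Alternatives were other peak sets, each replicate alone (its 2031 highest peaks), other TSS, match, motif and span widths, assignment to the nearest protein-coding TSS and windows centred on summits.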

Additional observations from a re-analysis of the deposited data

How the results depend on the processing

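The count of bHLH genes with a summit within 1 kb was 4. It was 3 with a stricter set, the higher-ranked part of the thresholded list, where E(spl)m5-HLH was lost, 5 with a 2 kb window, where E(spl)m8-HLH was added through the gro summit, and 4 with a 500 bp window or with each summit given to its nearest protein-coding TSS. Leaving out a replicate gave 4 to 5, with E(spl)mgamma-HLH added without replicate 1. The count of 11 summits in the complex became 10 to 12 when a replicate was left out, 8 with the stricter set and 7 with the span not widened, since the 4 at its edges, including the highest, were then outside. With all pooled peaks the counts were 7 genes, 44 summits, 18 summits with a fork head word and 31 pathway genes, which follows from the 30000 peaks of that list. The fork head count of 7 was 2 within 50 bp and 7 within 250 bp, with no share over all thresholded summits given for these widths. The 11 pathway genes were 7 with the stricter set. The share of windows with as many summits, 0.0172%, was 0.395% with all pooled peaks, 0.295% with windows centred on summits, and 0.00524% to 0.0599% when a replicate was left out, without replicate 1 and without replicate 2. No paired analysis was possible because there is 1 group. Unknown depth and the unstated signal scale limit all values to ranks within a list.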
